A study of Gallus gallus with 21 samples.

Results

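The collagen chain genes were followed through the dermal tissues of the growing and resting feather follicle. Members were all genes whose name in the deposited tables has the form COL, a number, A and a number, which gave 21 of 13815 genes in experiment 1 and 24 of 23789 genes in experiment 2. The 21 genes of experiment 1 were all among the 24 of experiment 2, which in addition held COL9A1, COL9A3 and COL22A1. They comprised 6 fibrillar chains, 6 fibril-associated chains, 2 basement membrane chains, 5 chains of the beaded filament and related group, 2 short-chain network chains and 3 transmembrane chains. All 24 names matched the RefSeq gene table of the chicken assembly GRCg7b, which holds 41 genes named in this form. The other 17 had no row under that name in either table and were not analysed here, and some rows carry only an Ensembl identifier, which that table does not pair with a symbol.

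All libraries came from contour feather follicles of untreated white leghorn chickens, all male and 1 year of age, and 21 libraries were sequenced. Experiment 1 sampled 4 parts of the early growth follicle, with 3 libraries each of central pulp, peripheral pulp, dermal sheath and dermal papilla. Experiment 2 sampled the pulp in the early growth, late growth and near resting phases, with 2 libraries each, and the apical dermal papilla in the resting phase, with 3 libraries. Whether replicates are different birds, or pools of birds, is not stated, and the p-values then rest on a spread between samples that may be technical. Values are TPM, a transcript level corrected for transcript length and scaled to a fixed total per library, so that levels of different chains can be set side by side within a library. Depth is unknown, because TPM keeps none, and a library held from 12569 to 13451 genes at 1 TPM or more. The lowest gene mean over libraries was 1.00 TPM in experiment 1 and 0 TPM in experiment 2. Whether COL9A1, COL9A3 and COL22A1 are absent from experiment 1 because they were low cannot be told. The shares of all genes called given below thus come from gene sets with different lower ends.

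Collagens are secreted or membrane-bound proteins built from 3 chains wound into a triple helix. Fibrillar collagens, above all types I and III, make the fibres that give skin and tendon their strength, with type V inside the fibrils, and fibril-associated collagens sit on the fibril surface. Type IV collagen forms the sheet-like network of basement membranes, type VI forms beaded filaments around cells, type VIII forms short-chain networks, and the transmembrane collagens XIII, XVII and XXV anchor cells to the matrix or are shed from the surface. In the feather follicle the dermal papilla and sheath persist from cycle to cycle, whereas the pulp is built during growth and is withdrawn as the follicle nears rest.

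The labelled tissues were first set against marker genes. The 6 smooth muscle markers summed to 26520.3 to 28706 TPM in the dermal papilla and 13394 to 17443 TPM in sheath, against 135 to 202 TPM in peripheral and 777 to 1179.6 TPM in the central pulp, and the resting apical papilla of experiment 2 held 134 to 140.2 TPM. The 6 keratinocyte markers summed to 5555 to 8386 TPM in sheath and 220.2 to 411 TPM in the papilla. In near resting pulp they summed to 1776 to 9687 TPM, and the higher value belonged to replicate 1. In bulk tissue, fewer cells of a type and less RNA per cell cannot be told apart.

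Fibrillar chains made up most of the collagen transcript level in every library. The members together summed to 21259 ± 1745 TPM (mean ± SD, n = 3) in the dermal papilla, 22988 ± 473 TPM in sheath, 24253 ± 2609 TPM in the peripheral pulp and 27394 ± 1058 TPM in the central pulp. These sums were between 2.13% and 2.75% of all TPM on average. Central pulp libraries were above every papilla and sheath library, and all other pairs of parts overlapped.

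Over the pulp stages the same sum was 23167 and 22694 TPM in the 2 early growth libraries. It was 41472 and 40261 TPM in late growth and 25639 and 31012 TPM near rest. Late growth pulp was above every other library of experiment 2 and gave 4.09% of its TPM to the members. The resting apical papilla was the lowest group, at 8445, 7744 and 8223 TPM, or 0.819% of its TPM. Fibrillar chains held 70.5% of the members' TPM in early growth, 79.1% in late growth, 76.6% near rest and 67.5% in the resting apical papilla. The short-chain network chains went from 0.599% in early growth to 5.18% in late growth. No test was made on these sums, since they are scores over the members.

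**Figure D1:**
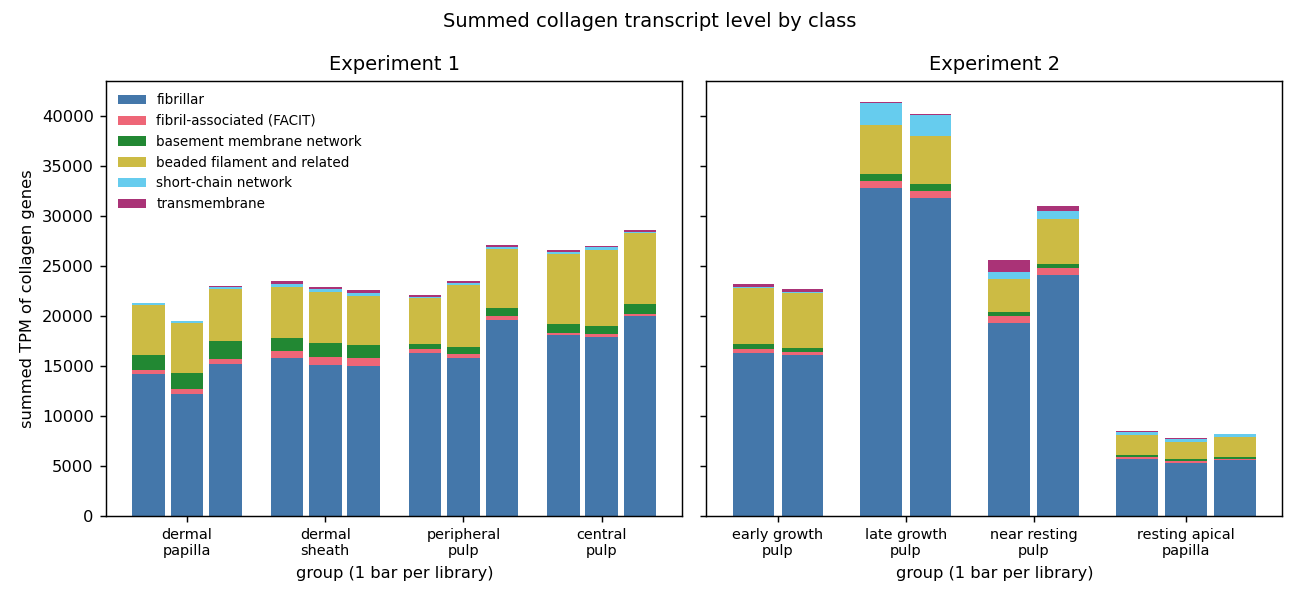
Summed TPM of the collagen genes (y axis, from 0), 1 bar per library, split by collagen class, for the 4 follicle parts (left) and for the 3 pulp stages and the resting apical papilla (right). The late growth libraries reach 41472 and 40261 TPM and the resting apical papilla libraries stay at or below 8445 TPM. The tables were normalized separately.

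The members were tested gene by gene with limma on log2(TPM + 1). An F test over the 4 groups called 20 of 21 members in experiment 1 at an adjusted p under 0.05, where 76.3% of 13804 tested genes were called. In experiment 2 it called 22 of the 22 members that reached 1 TPM in at least 2 libraries, where 85.0% of 14915 genes were called. The exception in experiment 1 was COL8A2 (adjusted p = 0.058). COL22A1 and COL28A1 did not pass the filter in experiment 2. COL9A1 and COL9A3 passed it only through the late growth libraries, where they were high. Their calls that involve that stage are not independent of the filter.

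**Figure D2:**
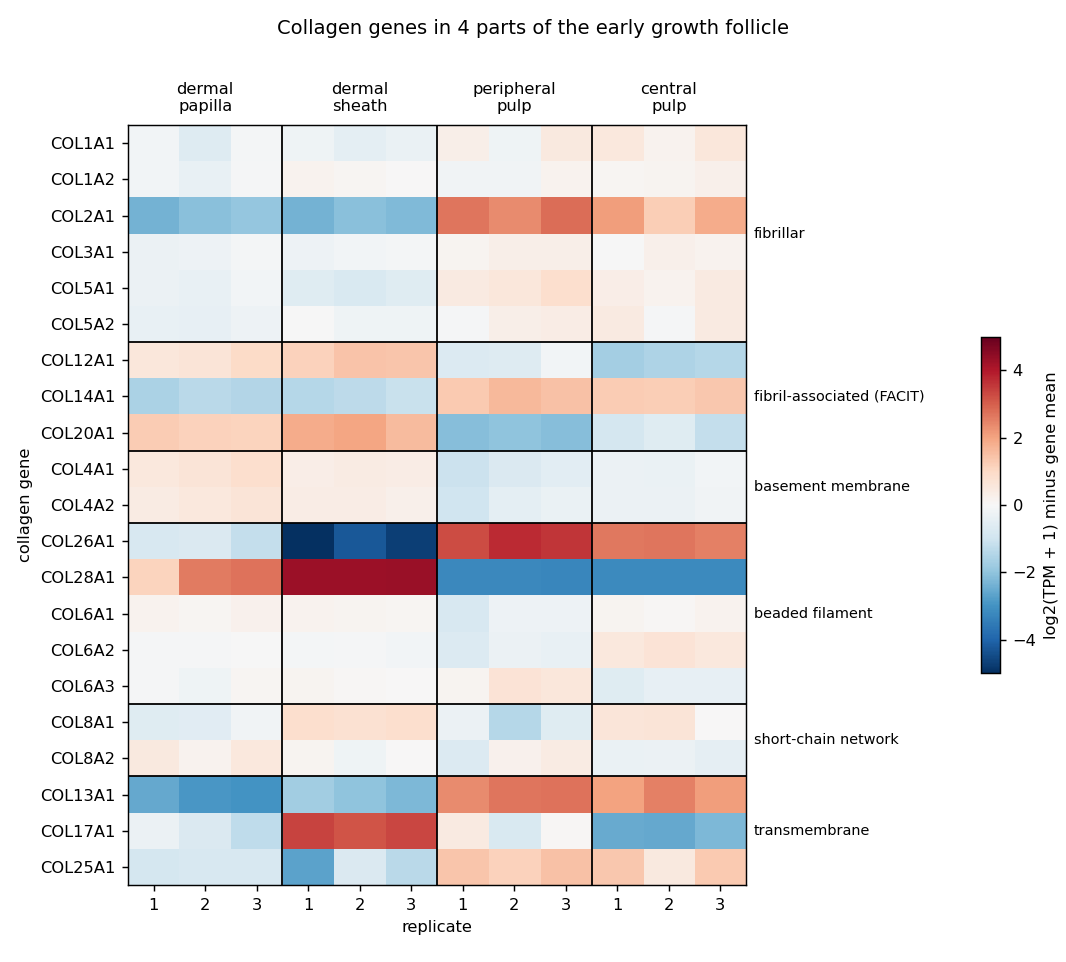
Level of each of the 21 collagen genes (rows, grouped by class) in the 12 libraries of experiment 1 (columns), as log2(TPM + 1) minus the gene's mean. Red is above and blue below the gene's mean, and values past the ends of the scale take the end colour. COL28A1 and COL17A1 are highest in the dermal sheath, and COL2A1, COL13A1, COL14A1 and COL26A1 are higher in both pulp parts than in papilla and sheath.

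**Figure D3:**
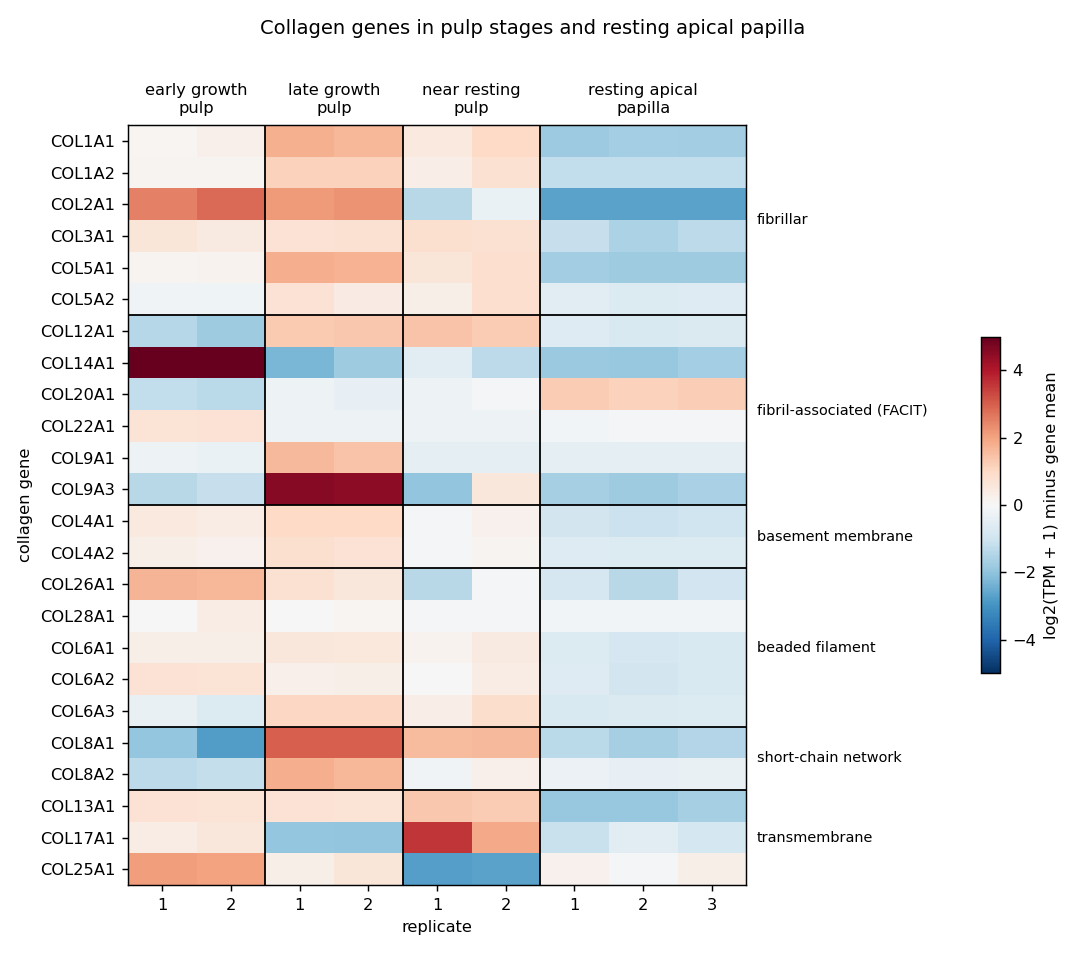
The same map for the 24 collagen genes in the 9 libraries of experiment 2, with COL14A1 high in early growth pulp, COL9A3 and COL8A1 high in late growth pulp and COL17A1 high near rest.

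Types I and III were the most abundant fibrillar chains in the early growth follicle. COL1A2, which encodes the alpha 2 chain of type I collagen, was at 7471, 6324 and 7863 TPM in the 3 dermal papilla libraries, 9168, 8721 and 8309 TPM in sheath, 7353, 7227 and 9202 TPM in the peripheral pulp and 8666, 8984 and 9876 TPM in the central pulp. By mean level it ranked 4th of all genes in the papilla, 3rd in the sheath and in peripheral pulp, and 5th in central pulp. The papilla was lower than central pulp (log2 fold change -0.35 ± 0.10 SE, adjusted p = 0.014), and no other pair passed. That call turned in direction after quantile normalization, with a log2 fold change of 0.19 (adjusted p = 0.18). It was also lost without papilla replicate 2 (-0.26, adjusted p = 0.063) and without central pulp replicate 3 (-0.30, adjusted p = 0.059).

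COL1A1, the alpha 1 chain of type I collagen, was at 2741, 1939.5 and 2835 TPM in the papilla, 2610.0, 2162 and 2389 TPM in sheath, 3632, 2579.8 and 4235 TPM in the peripheral pulp and 4346, 3366 and 4473 TPM in the central pulp. Central pulp was above every papilla and sheath library, and peripheral pulp overlapped both. It was lower in the papilla than in central pulp (log2 fold change -0.71 ± 0.19 SE, adjusted p = 0.0094) and in the sheath than in central pulp (-0.76 ± 0.19, adjusted p = 0.0057). The sheath was also called lower than peripheral pulp (-0.52 ± 0.19, adjusted p = 0.037). This call was lost with median-of-ratios scaling (-0.31, adjusted p = 0.19), without trended and robust variance (adjusted p = 0.052), and without replicate 2 or 3 of the sheath or 1 or 3 of peripheral pulp (adjusted p from 0.075 to 0.14). COL3A1, the single chain of type III collagen, was at 3258, 3300.3 and 3706 TPM in the papilla, 3325, 3583 and 3644 TPM in sheath, 4343, 4831 and 4814 TPM in the peripheral pulp and 3886, 4673 and 4425 TPM in the central pulp. Both pulp parts lay above every papilla and sheath library. The difference was called for papilla against peripheral pulp (-0.45 ± 0.08) and central pulp (-0.34 ± 0.08), and for sheath against both (-0.41 ± 0.08 and -0.30 ± 0.08), although the sheath calls were lost with median-of-ratios scaling (adjusted p = 0.055 and 0.061).

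Type V collagen is embedded in type I fibrils and limits their diameter. Both of its chains analysed here were higher in pulp than in the papilla, and COL5A1 was also higher in pulp than in the sheath. COL5A1 was at 278, 266 and 315 TPM in the papilla, 222, 204 and 222 TPM in sheath, 463, 506 and 616 TPM in the peripheral pulp and 432, 386 and 465 TPM in the central pulp. Sheath, papilla and pulp did not overlap, in rising order, and every pair except the 2 pulp parts was called. The largest of these differences was between sheath and peripheral pulp (log2 fold change -1.27 ± 0.11 SE, adjusted p = 1.4e-06). The papilla was above the sheath by 0.40 ± 0.11, adjusted p = 0.014, a call lost after quantile normalization (0.27, adjusted p = 0.085) and without papilla replicate 3 (adjusted p = 0.06) or sheath replicate 2 (adjusted p = 0.051). COL5A2 was at 401, 395 and 431 TPM in the papilla, 515, 449 and 449.6 TPM in sheath, 491, 640.1 and 676 TPM in the peripheral pulp and 708, 495 and 707 TPM in the central pulp. The papilla had the lowest mean and was called against peripheral pulp (-0.55 ± 0.15) and central pulp (-0.62 ± 0.15). Sheath and peripheral pulp overlapped and were not called. The sheath overlapped central pulp and was called lower (-0.42 ± 0.15, adjusted p = 0.03), but not with median-of-ratios scaling (adjusted p = 0.09) or without replicate 2 or 3 of the sheath or 1 or 3 of central pulp (adjusted p from 0.083 to 0.11).

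COL2A1, the chain of type II collagen known as the main collagen of cartilage, was present in pulp at a low level. It was at 31.5, 25.1 and 34.5 TPM in the peripheral pulp and 20.7, 10.8 and 17.6 TPM in the central pulp, against 0, 0.212 and 0.336 TPM in papilla libraries and 0, 0.204 and 0.0899 TPM in sheath. Pulp and the other parts were far apart, with a log2 fold change of 4.73 ± 0.24 (SE) for peripheral pulp over papilla (adjusted p = 1.9e-08). Peripheral pulp was above central pulp (0.89 ± 0.24, adjusted p = 0.019), a call lost with a pseudocount of 0.1 (0.92, adjusted p = 0.27), without peripheral pulp replicate 3 (adjusted p = 0.063) and without central pulp replicate 2 (adjusted p = 0.07). SOX9, the transcription factor of cartilage cells, was at 18.1, 13.1 and 26.4 TPM in the central pulp and 6.11, 4.90 and 3.82 TPM in the peripheral pulp, against 13.6, 8.39 and 9.67 TPM in sheath and 4.23, 2.75 and 2.06 TPM in papilla libraries. The central pulp and the sheath overlapped, and every peripheral pulp library was below both. The cartilage proteoglycan gene ACAN was at 109, 105 and 105 TPM in sheath and 50.0, 47.4 and 67.4 TPM in papilla libraries, against 5.96, 12.5 and 17.0 TPM in the peripheral pulp and 2.80, 0.520 and 1.03 TPM in the central pulp. TNMD, a tendon gene, was at 1561, 1402 and 1317 TPM in sheath and at most 19.7 TPM in a pulp library. In sheath it made up most of the sum of the 4 cartilage and tendon markers present. This sum was 1505 to 1756 TPM in sheath, 576 to 726 TPM in the papilla, 16.4 to 26.1 TPM in peripheral pulp and 24.1 to 40.6 TPM in the central pulp. The part of such cells in the COL2A1 levels was not tested.

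Over the pulp stages COL1A1, COL1A2 and COL5A1 were highest in late growth. COL1A1 was at 3306 and 3689 TPM in early growth pulp, 10418 and 9548 TPM in late growth pulp, 4261 and 6022 TPM near rest and 863, 943 and 917 TPM in the resting apical papilla. The 4 groups did not overlap, and all pairs were called. It rose 2.85-fold from early to late growth (log2 fold change 1.51 ± 0.15 SE, adjusted p = 1.1e-04), fell towards rest (-0.98 ± 0.15, adjusted p = 0.0024) and was 11.0-fold lower in the resting apical papilla than in late growth (-3.46 ± 0.14, adjusted p = 1.0e-06). Near resting pulp stayed above early growth (0.54 ± 0.15, adjusted p = 0.017), which was not called without early growth replicate 1 (adjusted p = 0.094) or with only these 2 groups in the fit (adjusted p = 0.096).

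COL1A2 followed the same course with a narrower range. It was at 7438 and 7332 TPM in early growth, 14942 and 14958 TPM in late growth, where it was the most abundant transcript by mean level, 8403 and 11185 TPM near rest and 2882, 2811 and 2859 TPM in the resting apical papilla. It rose from early to late growth (log2 fold change 1.02 ± 0.12 SE, adjusted p = 2.5e-04) and fell from late growth to near rest (-0.62 ± 0.12, adjusted p = 0.0059), the fall not being called with median-of-ratios scaling (adjusted p = 0.078) or in the fit of these 2 groups alone (adjusted p = 0.075). Near resting pulp was above early growth (0.39 ± 0.12, adjusted p = 0.023), a call lost without either early growth library (adjusted p = 0.075 and 0.087) and in the fit of these 2 groups (adjusted p = 0.14). COL5A1 was at 492 and 499.8 TPM in early growth, 1554 and 1507 TPM in late growth, 676 and 790.3 TPM near rest and 133, 128 and 129 TPM in the resting apical papilla. Its 6 pairs were all called, with a rise of 1.62 ± 0.09 on the log2 scale into late growth, a change of -1.06 ± 0.09 from there to near rest, and -3.55 ± 0.08 in the resting apical papilla against late growth.

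COL3A1 and COL5A2 did not share this peak. COL3A1 was at 4383 and 3891 TPM in early growth, 4722 and 4829 TPM in late growth, 5076 and 4849 TPM near rest and 1282, 957 and 1170.0 TPM in the resting apical papilla. The 3 pulp stages did not differ by the test (0.21 ± 0.13, adjusted p = 0.22 for late against early growth, 0.06 ± 0.13, adjusted p = 0.80 for near rest against late growth), and the resting apical papilla was below all of them (-2.14 ± 0.12, adjusted p = 5.0e-06 against near rest). COL5A2 was at 631 and 612 TPM in early growth, 1170.1 and 948 TPM in late growth, 886 and 1283 TPM near rest and 492, 449 and 464 TPM in the resting apical papilla. It rose from early to late growth (0.76 ± 0.17, adjusted p = 0.0065) with no called difference from late growth to near rest (0.02 ± 0.17, adjusted p = 0.97), and the 2 stages overlapped. The rise was at adjusted p = 0.051 without late growth replicate 1. The resting apical papilla was lower than early growth (-0.41 ± 0.16, adjusted p = 0.048), which was not called without any 1 of its own or the early growth libraries, nor with a pseudocount of 0.1, without the filter, with either scaling alternative or without trended and robust variance (adjusted p from 0.050 to 0.27).

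COL2A1 fell towards rest. It was at 35.0 and 43.4 TPM in early growth, 26.6 and 28.9 TPM in late growth and 1.42 and 3.98 TPM near rest, and was listed at 0 in all 3 resting apical papilla libraries. Early and late growth did not differ by the test (-0.47 ± 0.32, adjusted p = 0.24), and the fall came between late growth and near rest (-3.05 ± 0.32, adjusted p = 3.8e-04).

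Ratios between chains of the same collagen also differed between groups. Type I collagen is usually a trimer with more alpha 1 than alpha 2 chains, and the TPM of COL1A2 exceeded that of COL1A1 in every library. The ratio of COL1A2 to COL1A1 was 2.92 ± 0.296 in the papilla, 3.67 ± 0.311 in sheath, 2.33 ± 0.412 in the peripheral pulp and 2.29 ± 0.345 in the central pulp. In experiment 2 it was 2.25 and 1.99 in early growth, 1.43 and 1.57 in late growth, 1.97 and 1.86 near rest and 3.34, 2.98 and 3.12 in the resting apical papilla. It was lowest in late growth pulp, where both chains were most abundant, and highest in the sheath and the resting apical papilla of the respective tables. The ratio of COL1A1 to COL3A1 was 2.21 and 1.98 in late growth pulp, 0.754 and 0.948 in early growth, 0.839 and 1.24 near rest and 0.674, 0.985 and 0.784 in the resting apical papilla. The ratio of COL5A2 to COL5A1 spanned 0.753 and 0.629 in late growth to 3.71, 3.50 and 3.59 in the resting apical papilla. These ratios are given without a test, and the annotation behind the transcript lengths was not given. They are of transcript levels and do not show the make-up of the protein.

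The fibril-associated collagens XII and XIV were high in opposite parts of the follicle. Both coat the surface of type I fibrils, type XII being typical of tissues under load such as tendon. COL12A1 was at 424, 448 and 543 TPM in the papilla, 623, 753 and 749.8 TPM in sheath, 177, 182 and 256 TPM in the peripheral pulp and 86.5, 95.4 and 104 TPM in the central pulp. The 4 parts did not overlap, and each pair was called, from -0.59 ± 0.15, adjusted p = 0.0083 for papilla against sheath to 2.88 ± 0.15, adjusted p = 2.0e-08 for sheath against central pulp. COL14A1 ran the other way, at 22.4, 26.6 and 24.7 TPM in the papilla, 25.5, 27.5 and 31.7 TPM in sheath, 172, 216 and 191 TPM in the peripheral pulp and 169, 164 and 180.5 TPM in the central pulp. Each pulp part was called against each of the other 2 parts, with log2 fold changes between 2.56 ± 0.11 and 2.92 ± 0.11 (SE), whereas papilla and sheath (-0.19 ± 0.11, adjusted p = 0.18) and the 2 pulp parts (0.17 ± 0.11, adjusted p = 0.28) were not called. The cartilage and tendon sum given above was likewise higher in sheath and papilla than in pulp. In experiment 2 the sum of such markers was highest in late growth. It was lower near rest (3.43 to 12.9 TPM) than in early growth (19.1 to 20.1 TPM), whereas COL12A1 was higher near rest. The part of such cells in the COL12A1 levels was not tested. The ratio of COL12A1 to COL14A1 was 25.2 ± 1.97 in sheath and 0.557 ± 0.0402 in the central pulp.

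Between early and late growth the 2 genes changed in opposite directions within the pulp. COL14A1 was at 283 and 239.5 TPM in early growth pulp, 0.0773 and 0.520 TPM in late growth, 2.58 and 1.11 TPM near rest and 0.450, 0.388 and 0.611 TPM in the resting apical papilla. It fell by 7.67 ± 0.29 (SE) on the log2(TPM + 1) scale from early to late growth (adjusted p = 1.2e-06), to a level below 1 TPM. COL12A1 was at 95.2 and 76.1 TPM in early growth, 648 and 656 TPM in late growth, 707 and 631 TPM near rest and 166, 152 and 156 TPM in the resting apical papilla. It rose 7.61-fold into late growth (log2 fold change 2.92 ± 0.11 SE, adjusted p = 1.4e-06), did not differ between late growth and near rest (0.04 ± 0.11, adjusted p = 0.86) and was lower in the resting apical papilla than near rest (-2.08 ± 0.10, adjusted p = 2.8e-06). The later differences of COL14A1 rest on values of 2.58 TPM or less. Near rest against late growth it was 1.10 ± 0.29, adjusted p = 0.024, which was not called without late growth replicate 1 (adjusted p = 0.13), without near resting replicate 1 (adjusted p = 0.072) or in the fit of these 2 groups (adjusted p = 0.14). The resting apical papilla against near rest it was -0.89 ± 0.27, adjusted p = 0.019, not called without near resting replicate 1 or without papilla replicate 1 or 2 (adjusted p of 0.11, 0.050 and 0.055).

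**Figure D4:**
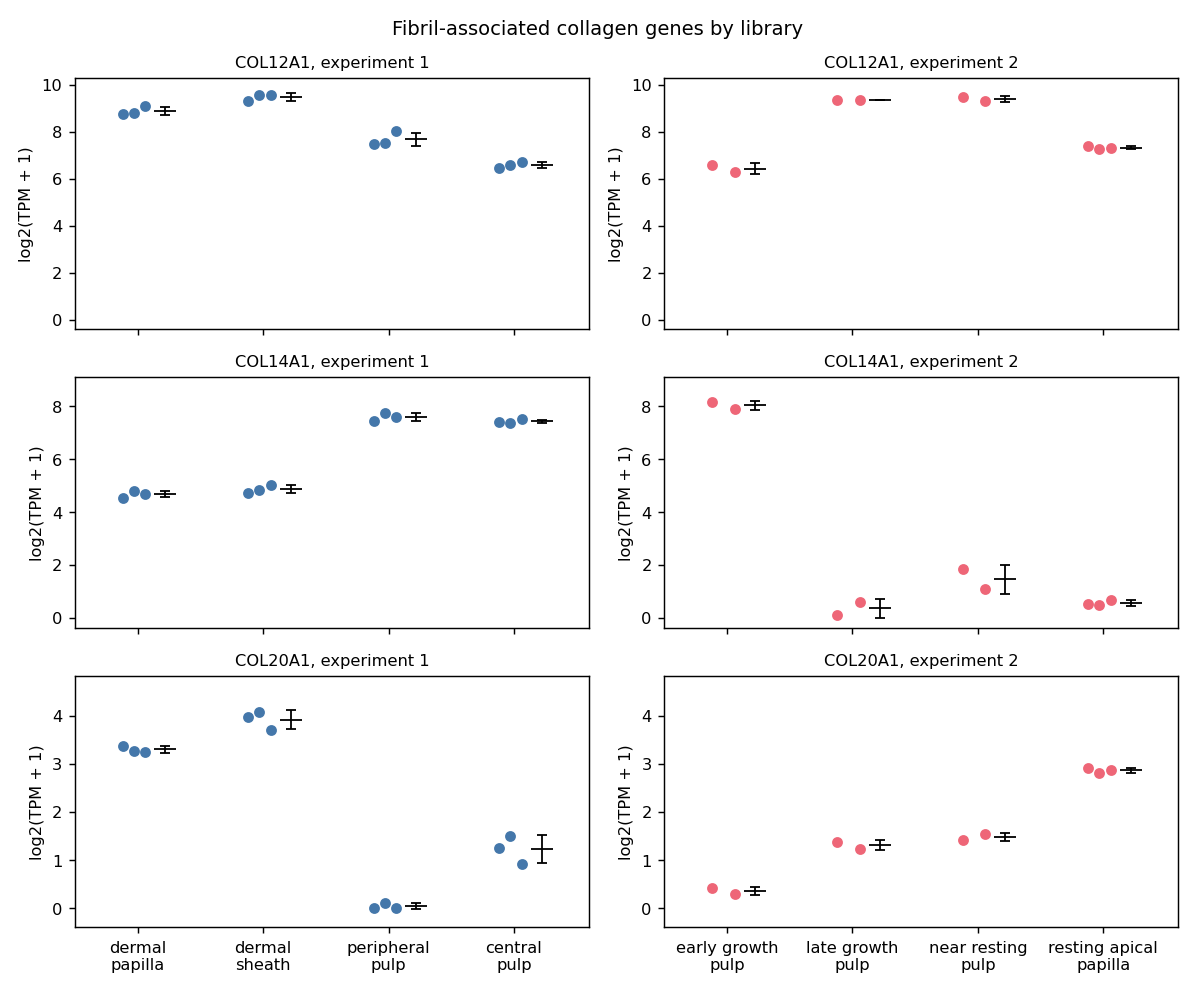
COL12A1, COL14A1 and COL20A1 as log2(TPM + 1) (y axis) in each library of the 4 follicle parts (left) and of the pulp stages and resting apical papilla (right), with points for libraries and a bar for the mean ± SD of each group. COL14A1 falls from about 8 to below 1 on this scale between early and late growth pulp while COL12A1 rises above 9. The tables were normalized separately.

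COL20A1, a fibril-associated collagen known from chick embryonic tissues, was at a low level and highest in papilla and sheath. It was at 9.40, 8.60 and 8.53 TPM in the papilla, 14.7, 16.0 and 12.0 TPM in sheath, 1.39, 1.82 and 0.900 TPM in the central pulp and 0, 0.0780 and 0 TPM in peripheral pulp. The 4 parts did not overlap, with the sheath above central pulp by 2.69 ± 0.19, adjusted p = 2.4e-07. The step from papilla to sheath was called (-0.62 ± 0.19, adjusted p = 0.021), but not with a pseudocount of 0.1 (adjusted p = 0.14), after quantile normalization (adjusted p = 0.053) or without papilla replicate 2 or 3 or sheath replicate 1 or 2 (adjusted p from 0.06 to 0.08). Over the stages it was at 6.48, 6.02 and 6.33 TPM in the resting apical papilla, 0.330 and 0.224 TPM in early growth, 1.61 and 1.35 TPM in late growth and 1.66 and 1.90 TPM in near resting pulp. The resting apical papilla was above all pulp libraries, by 1.39 ± 0.16 against near rest and 2.51 ± 0.16 against early growth, and it was the one member called higher there than in each pulp stage.

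COL9A3 and COL9A1 encode chains of type IX collagen, a fibril-associated collagen bound to the type II fibrils of cartilage. Transcripts of both were highest in late growth pulp. COL9A3 was at 90.3 and 85.2 TPM in late growth, against 0.520 and 0.749 TPM in early growth, 0 and 4.83 TPM near rest and 0.252, 0.131 and 0.276 TPM in the resting apical papilla. Both late growth libraries were far above the others (log2 fold change 5.77 ± 0.67 SE, adjusted p = 2.4e-04 against early growth). Its partner COL9A1 was at 3.33 and 2.83 TPM in late growth and 0.178 and 0.130 TPM in early growth, and was listed at 0 in every near resting and resting apical papilla library (1.82 ± 0.16, adjusted p = 6.1e-05 for late against early growth). Both genes passed the filter only through the late growth libraries, so these p-values are no independent support for the rise into late growth. In these libraries SOX9 was at 0 and 0.240 TPM, ACAN at 3.28 and 2.49 TPM and MATN1 at 0.203 and 0.541 TPM. TNMD was highest there, at 27.3 and 27.5 TPM, against 4.39 and 3.57 TPM in early growth, 1.53 and 5.97 TPM near rest and 1.67, 2.22 and 1.12 TPM in the resting apical papilla. It made up most of the sum of the 5 cartilage and tendon markers in late growth, which was 30.8 TPM in both libraries, against 19.1 to 20.1 TPM in early growth, 3.43 to 12.9 TPM near rest and 2.06 to 3.25 TPM in the resting apical papilla. Its part in the COL9A3 level was not tested. COL22A1, a fibril-associated collagen of tissue junctions such as that of muscle and tendon, was at 0.932 and 1.01 TPM in early growth, was listed at 0 in late growth and near rest, and was at 0.0893, 0.122 and 0.159 TPM in the resting apical papilla.

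The 2 chains analysed here of type IV collagen, the network former of basement membranes, moved together. COL4A1 was at 912, 1005 and 1129 TPM in the papilla, 807, 843 and 821 TPM in sheath, 301, 385 and 437 TPM in the peripheral pulp and 515, 499 and 569.7 TPM in the central pulp. The order was papilla, sheath, central pulp and peripheral pulp without overlap, and the one neighbouring step that was not called was papilla to sheath (0.30 ± 0.12, adjusted p = 0.077). Papilla against peripheral pulp was the widest difference (log2 fold change 1.45 ± 0.12 SE, adjusted p = 1.2e-06). COL4A2 was at 545, 578 and 635 TPM in the papilla, 523, 528 and 482 TPM in sheath, 206, 285 and 324 TPM in the peripheral pulp and 329, 334 and 359 TPM in the central pulp. Papilla and sheath were each above both pulp parts, by 1.13 ± 0.13 for papilla against peripheral pulp and 0.58 ± 0.13 for sheath against central pulp, and the 2 pulp parts were not called (-0.35 ± 0.13, adjusted p = 0.079).

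In experiment 2, COL4A1 was at 314 and 292 TPM in early growth, 447 and 444 TPM in late growth, 215 and 259 TPM near rest and 118, 106 and 114 TPM in the resting apical papilla. It rose into late growth (0.56 ± 0.10, adjusted p = 0.0025), fell towards rest (-0.91 ± 0.10, adjusted p = 5.4e-04) and was lowest in the resting apical papilla (-1.06 ± 0.09, adjusted p = 4.3e-05 against near rest). Near rest it was also below early growth (-0.36 ± 0.10, adjusted p = 0.018), but this was not called with median-of-ratios scaling (-0.06, adjusted p = 0.72), with quantile normalization (adjusted p = 0.14), in the fit of these 2 groups (adjusted p = 0.13) or without early growth replicate 1 (adjusted p = 0.097). COL4A2 was at 174 and 167 TPM in early growth, 249 and 237 TPM in late growth, 133 and 158 TPM near rest and 91.1, 88.7 and 88.5 TPM in the resting apical papilla, with the same calls except that near rest against early growth did not pass (-0.24 ± 0.09, adjusted p = 0.06). The ratio of COL4A1 to COL4A2 lay between 1.35 and 1.78 over the 12 libraries of experiment 1 and between 1.2 and 1.88 over the 9 of experiment 2, the narrowest range of the 7 ratios between chains whose range over libraries was computed. The 2 genes are neighbours in the RefSeq table and their annotated spans overlap, so that reads in the overlap could not be told apart without strand.

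Markers of endothelial cells, pericytes and smooth muscle cells differed between the same groups. The 5 endothelial markers present summed to 494 to 523 TPM in the papilla, 671 to 776 TPM in sheath, 427 to 694 TPM in the peripheral pulp and 595 to 704 TPM in the central pulp, an order that differs from that of COL4A1. The 3 pericyte markers present summed to 2746 to 3055 TPM, 1768 to 1951 TPM, 116 to 188 TPM and 463 to 486 TPM in the same parts. This sum was in the order of COL4A1 but was mostly RGS5. In the same order of parts, KCNJ8 had means of 39.3, 33.9, 59.7 and 69.0 TPM. ABCC9 had means of 5.51, 9.21, 8.70 and 12.4 TPM, and both were highest in central pulp. In experiment 2 the pericyte sum was 119 to 123 TPM in early growth, 644 to 672 TPM in late growth, 280.3 to 298 TPM near rest and 388 to 402 TPM in the resting apical papilla. The resting apical papilla was above early growth and near rest in this sum, unlike in COL4A1. Over the stages the endothelial sum was 307 to 312 TPM in early growth, 634 to 649.5 TPM in late growth, 291 to 357 TPM near rest and 223 to 234 TPM in the resting apical papilla. Like COL4A1, this sum was highest in late growth and lowest in the resting apical papilla. The part of these cells in the type IV levels was not tested.

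Type VI collagen, whose 3 chains assemble into beaded filaments around cells, was abundant throughout. COL6A2 was at 2933, 2978 and 3039.5 TPM in the papilla, 2889.6, 2953 and 2794 TPM in sheath, 1936, 2474 and 2392 TPM in the peripheral pulp and 4410.0, 4978 and 4450.1 TPM in the central pulp. Central pulp was above and peripheral pulp below all other libraries, with a difference between the 2 pulp parts of -1.03 ± 0.09, adjusted p = 1.2e-05. After quantile normalization peripheral pulp was no longer called against the papilla (adjusted p = 0.06) or the sheath (adjusted p = 0.26). COL6A1 was at 1474, 1411 and 1498 TPM in the papilla, 1470.3, 1453 and 1408 TPM in sheath, 748, 1091 and 1108 TPM in the peripheral pulp and 1446, 1363 and 1456 TPM in the central pulp. Peripheral pulp was lower than each other part (-0.55 ± 0.12, adjusted p = 0.0063 against central pulp), and the other 3 did not differ by the test.

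COL6A3 differed from its partners. It was at 486, 434 and 535 TPM in the papilla, 556, 533 and 518 TPM in sheath, 561, 805 and 745 TPM in the peripheral pulp and 331, 382 and 383 TPM in the central pulp. Peripheral pulp was the highest part and central pulp the lowest, and the 2 differed by 0.93 ± 0.13, adjusted p = 3.4e-04. The ratio of COL6A3 to COL6A2 was 0.309 ± 0.0178 in peripheral pulp, 0.186 ± 0.00609 in sheath, 0.162 ± 0.0155 in the papilla and 0.0793 ± 0.00588 in the central pulp. Papilla against central pulp was called (0.41 ± 0.13, adjusted p = 0.017) but not after quantile normalization (adjusted p = 0.12) or without papilla replicate 3 or central pulp replicate 1 (adjusted p = 0.07 and 0.065). Sheath against peripheral pulp was called (-0.38 ± 0.13, adjusted p = 0.021) but not with median-of-ratios scaling (adjusted p = 0.28) or without replicate 2 or 3 of either part (adjusted p from 0.052 to 0.093).

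Over the stages COL6A3 again differed from COL6A1 and COL6A2. COL6A3 was at 323 and 257 TPM in early growth, 855 and 861 TPM in late growth, 529 and 766 TPM near rest and 244, 251 and 264 TPM in the resting apical papilla. It rose into late growth (1.57 ± 0.17, adjusted p = 1.8e-04), and near rest it was still above early growth (1.14 ± 0.17, adjusted p = 8.4e-04), while early growth and the resting apical papilla did not differ by the test (-0.19 ± 0.16, adjusted p = 0.32). COL6A2 was at 2704 and 2631 TPM in early growth, 1939 and 1983 TPM in late growth, 1636 and 2126 TPM near rest and 1033, 871 and 967 TPM in the resting apical papilla. Its step down into late growth was called (-0.44 ± 0.13, adjusted p = 0.021), but not with either scaling alternative (adjusted p = 0.12 and 0.19), or without any 1 of the 4 libraries (adjusted p from 0.066 to 0.091). Near rest against early growth was called (-0.52 ± 0.13, adjusted p = 0.01), but not with median-of-ratios scaling (adjusted p = 0.29), in the fit of these 2 groups (adjusted p = 0.069) or without early growth replicate 1 (adjusted p = 0.051). COL6A1 was at 1053 and 1063 TPM in early growth, 1281 and 1266 TPM in late growth, 986 and 1198 TPM near rest and 535, 479 and 513 TPM in the resting apical papilla. No pair of pulp stages was called for it, and the resting apical papilla was below each stage (-1.09 ± 0.09, adjusted p = 3.7e-05 against near rest).

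COL28A1, a relative of the type VI chains that in the mouse is found mainly in peripheral nerve, was highest in the sheath. It was at 185, 181 and 188 TPM in sheath and 19.8, 56.1 and 62.1 TPM in the papilla, against 0.0144, 0.00674 and 0.00316 TPM in peripheral and 0.0335, 0.0391 and 0.0332 TPM in the central pulp. Sheath and papilla did not overlap (log2 fold change 2.14 ± 0.32 SE, adjusted p = 3.8e-04), and papilla replicate 1 was the lowest of the 6 libraries. In every library of experiment 2 it was at or below 0.414 TPM, with 0.0106, 0.00338 and 0.00870 TPM in the resting apical papilla. The keratinocyte sum was higher in the sheath than in any other part of experiment 1. It was also higher in peripheral pulp (425 to 1201 TPM) than in the papilla (220.2 to 411 TPM), whereas COL28A1 was higher in the papilla. Near rest the keratinocyte sum was 1776 to 9687 TPM, with COL28A1 at 0.0416 and 0.0662 TPM. The part of keratinocytes in the COL28A1 levels was not tested.

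COL26A1 encodes a secreted protein with short collagenous stretches and was grouped with the beaded filament chains for want of a class of its own. It was high in pulp, at 1349.7, 1906 and 1684 TPM in the peripheral pulp and 882, 908 and 819 TPM in the central pulp, against 80.7, 85.7 and 62.0 TPM in papilla libraries and 0.379, 6.48 and 4.43 TPM in sheath. Peripheral pulp lay 8.74 ± 0.49 (SE) above the sheath on the log2 scale (adjusted p = 1.6e-07) and 4.42 ± 0.49 above the papilla (adjusted p = 2.7e-05). The papilla was above the sheath (4.32 ± 0.49, adjusted p = 1.0e-04), and the 2 pulp parts did not overlap but were not called (0.91 ± 0.49, adjusted p = 0.21).

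In experiment 2, COL26A1 was at 1537 and 1499 TPM in early growth, 809 and 712 TPM in late growth, 181 and 456 TPM near rest and 271, 181 and 245 TPM in the resting apical papilla. It was lower near rest than in early growth (-2.40 ± 0.38, adjusted p = 0.001), whereas late against early growth did not pass (-1.0 ± 0.38, adjusted p = 0.056). The further fall from late growth to near rest (-1.40 ± 0.38, adjusted p = 0.025) was not called with median-of-ratios scaling (adjusted p = 0.07), in the fit of these 2 groups (adjusted p = 0.11), or without late growth replicate 1 or 2 (adjusted p = 0.12 and 0.079). Near resting pulp and the resting apical papilla overlapped.

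A large rise between pulp stages was seen in type VIII, a short-chain collagen of hexagonal lattices known from the cornea and from remodelling vessel walls. COL8A1 was at 40.6 and 22.2 TPM in early growth, 1284 and 1258 TPM in late growth, 482 and 492 TPM near rest and 61.7, 50.2 and 57.2 TPM in the resting apical papilla. It rose 40.5-fold into late growth (log2 fold change 5.36 ± 0.23 SE, adjusted p = 2.3e-06), fell towards rest (-1.38 ± 0.23, adjusted p = 0.0036) and was lower again in the resting apical papilla (-3.09 ± 0.21, adjusted p = 1.3e-05). COL8A2 was at 102 and 110.2 TPM in early growth, 892 and 799.8 TPM in late growth, 225 and 299 TPM near rest and 203, 187 and 196 TPM in the resting apical papilla. It rose 7.98-fold (2.98 ± 0.13, adjusted p = 2.6e-06) and fell towards rest (-1.70 ± 0.13, adjusted p = 1.1e-04). The last step to the resting apical papilla (-0.41 ± 0.12, adjusted p = 0.02) was not called without near resting replicate 2 (adjusted p = 0.077) or papilla replicate 2 (adjusted p = 0.059). Endothelial markers, given above, and the smooth muscle markers (177 to 231 TPM in early growth, 584 to 595 TPM in late growth, 85.6 to 120.1 TPM near rest) were also highest in late growth pulp, and their part in this rise was not tested.

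**Figure D5:**
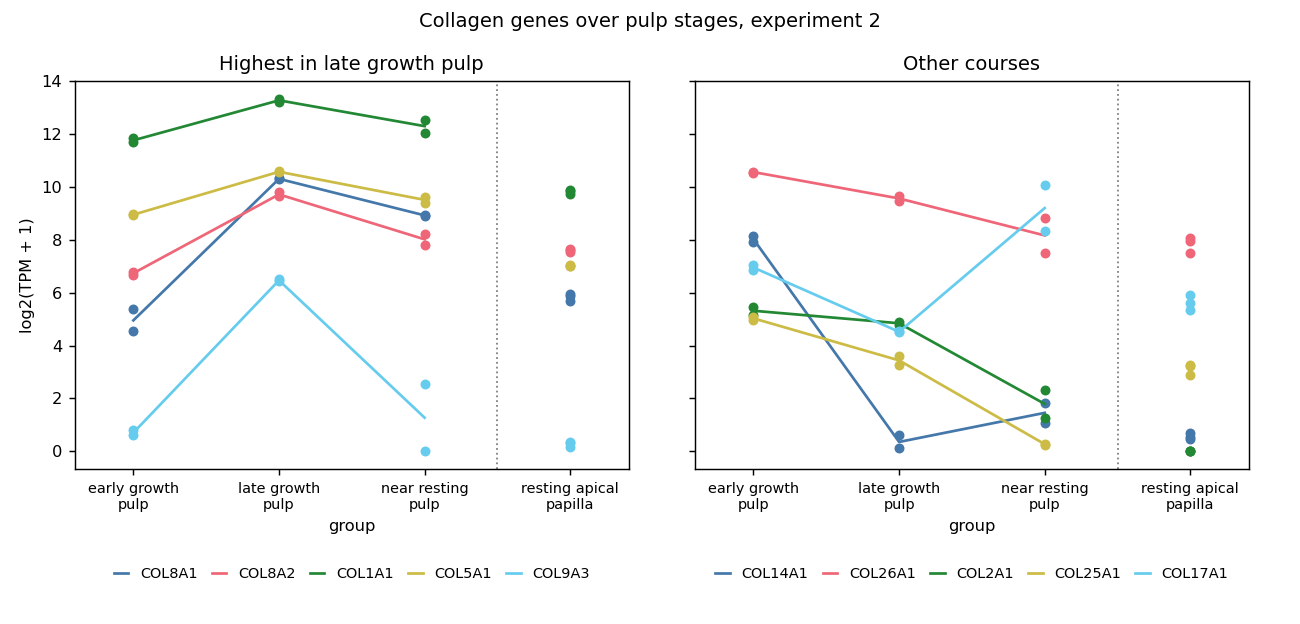
Log2(TPM + 1) (y axis) of 10 collagen genes in each library (points) of experiment 2, with lines joining the group means of the 3 pulp stages. Left, 5 genes whose highest level is in late growth pulp. Right, 5 genes with other courses, of which COL14A1, COL26A1, COL2A1 and COL25A1 are highest in early growth pulp and COL17A1 is highest near rest, where its 2 libraries lie apart.

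In the early growth follicle, COL8A1 was at 49.9, 51.9 and 68.7 TPM in the papilla, 139.7, 133 and 138 TPM in sheath, 63.7, 28.0 and 50.9 TPM in the peripheral pulp and 118, 120.4 and 78.3 TPM in the central pulp. The sheath was above the papilla (1.27 ± 0.26, adjusted p = 0.003) and peripheral pulp (1.58 ± 0.26, adjusted p = 3.1e-04) without overlap, and not called against central pulp (0.40 ± 0.26, adjusted p = 0.22). Central pulp was above peripheral pulp (1.19 ± 0.26, adjusted p = 0.0072) and above the papilla (0.87 ± 0.26, adjusted p = 0.015), the last not being called without papilla replicate 1 or central pulp replicate 1 or 2 (adjusted p from 0.053 to 0.058). COL8A2 was at 193, 153 and 197 TPM in the papilla, 151, 117 and 136 TPM in sheath, 84.8, 157 and 179 TPM in the peripheral pulp and 108, 109 and 99.2 TPM in the central pulp. Papilla against central pulp (0.76 ± 0.23, adjusted p = 0.015) was the one called pair, though the F test over the parts did not pass, and it was not called without papilla replicate 3 (adjusted p = 0.051).

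Among transmembrane collagens, COL13A1, a cell surface collagen of focal contacts and the neuromuscular junction, was at 117, 142 and 149.7 TPM in the peripheral pulp and 91.5, 129.6 and 95.1 TPM in the central pulp, against 2.86, 2.05 and 1.86 TPM in papilla libraries and 5.88, 4.69 and 3.74 TPM in sheath. Each pulp part was called against papilla and sheath, with peripheral pulp over papilla at 5.40 ± 0.18, adjusted p = 9.0e-10, and the 2 pulp parts were not called (0.38 ± 0.18, adjusted p = 0.15). The sheath was above the papilla by 0.82 ± 0.18, adjusted p = 0.0041. Over the stages it was at 108 and 105 TPM in early growth, 109.6 and 105 TPM in late growth, 169 and 161 TPM near rest and 17.0, 17.1 and 20.1 TPM in the resting apical papilla. It rose between late growth and near rest (0.62 ± 0.10, adjusted p = 0.0027), and the resting apical papilla was 9.14-fold lower than near resting pulp (-3.13 ± 0.09, adjusted p = 3.4e-07).

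COL25A1, a membrane collagen known from neurons and, in the mouse, from the innervation of muscle, was at 27.3, 23.4 and 29.2 TPM in peripheral pulp, 26.3, 14.2 and 25.9 TPM in the central pulp, 4.94, 5.24 and 5.20 TPM in papilla libraries and 0.712, 5.62 and 3.27 TPM in sheath. Both pulp parts were above papilla and sheath, by 2.17 ± 0.40 for peripheral pulp against papilla and 2.62 ± 0.40 for central pulp against sheath (SE). Over the pulp stages it was at 32.8 and 30.7 TPM in early growth, 8.72 and 11.1 TPM in late growth, 0.188 and 0.226 TPM near rest and 8.32, 6.36 and 8.74 TPM in the resting apical papilla. It fell at each stage (-1.59 ± 0.20, adjusted p = 3.6e-04 into late growth and -3.17 ± 0.20, adjusted p = 3.8e-05 towards rest) and was higher in the resting apical papilla than near rest (2.86 ± 0.18, adjusted p = 9.1e-06).

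COL17A1, the hemidesmosomal collagen of basal keratinocytes, was highest where the sum of the keratinocyte markers was highest. It was at 268, 226 and 261 TPM in sheath, 19.9, 14.6 and 9.87 TPM in the papilla, 34.7, 14.3 and 26.2 TPM in the peripheral pulp and 3.47, 3.39 and 4.53 TPM in the central pulp, and the 6 keratinocyte markers summed to 5555 to 8386 TPM, 220.2 to 411 TPM, 425 to 1201 TPM and 83.4 to 133 TPM in the same parts. The sheath was above the papilla by 4.04 ± 0.29, adjusted p = 2.8e-06, and papilla against peripheral pulp was not called (-0.69 ± 0.29, adjusted p = 0.063). In experiment 2 it was at 115 and 132 TPM in early growth, 22.3 and 21.7 TPM in late growth, 1069.6 and 325 TPM near rest and 39.6, 59.2 and 47.6 TPM in the resting apical papilla. Of the 6 markers, KRT5, KRT14, KRT15, SFN and CDH1 also had their highest mean near rest. TP63 had its highest mean in the resting apical papilla, at 46.6, 48.0 and 47.3 TPM, against 57.4 and 21.4 TPM near rest.

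The 2 near resting libraries lay far apart for COL17A1, and KRT5, the basal keratin, was at 2269 and 406 TPM in them. Near rest against late growth, COL17A1 rose by 4.68 ± 0.46 (SE) on the log2 scale (adjusted p = 3.3e-04). Without near resting replicate 1 the value was 3.83, which rests on the other near resting library alone. It fell from early to late growth (-2.43 ± 0.46, adjusted p = 0.0029), and the keratinocyte sum was 1101 to 1396 TPM in early and 289 to 294 TPM in late growth. Resting apical papilla against early growth (-1.34 ± 0.42, adjusted p = 0.023) was not called without either early growth library or without papilla replicate 1 or 3 (adjusted p from 0.052 to 0.11). The part of keratinocytes in these levels was not tested.

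Counts of members were read against the share of all genes called. Papilla against sheath called 2 of 21 members higher in the papilla (COL5A1 and COL26A1) and 6 lower (COL8A1, COL12A1, COL13A1, COL17A1, COL20A1 and COL28A1), where 37.7% of all genes were called, 21.7% higher and 16.0% lower. The count of 2 became 1 without papilla replicate 3 or after quantile normalization, and 4 without peripheral pulp replicate 1 or in the fit of these 2 parts alone. Papilla against peripheral pulp called 7 higher and 9 lower (background 57.3%, 21.7% higher and 35.6% lower), and papilla against central pulp 8 higher and 12 lower (background 52.9%, 23.7% higher and 29.2% lower). For the sheath the counts were 9 higher and 9 lower against peripheral pulp (background 59.4%, 20.2% higher and 39.1% lower) and 7 and 10 against central pulp (background 56.5%, 22.9% higher and 33.6% lower). Peripheral against central pulp called 4 higher (COL2A1, COL6A3, COL12A1 and COL17A1) and 5 lower (COL4A1, COL6A1, COL6A2, COL8A1 and COL20A1), with a background of 25.2%, 15.6% higher and 9.51% lower. The median log2 fold change was -0.04 over the members and 0.06 over all genes for papilla against sheath. For papilla against peripheral pulp the medians were -0.45 and -0.17. For papilla against central pulp the medians were -0.35 and -0.06. For sheath against peripheral pulp the medians were 0.00 and -0.21. For sheath against central pulp the medians were -0.07 and -0.11. For peripheral against central pulp the medians were 0.11 and 0.08.

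Across the stages, late against early growth called 13 of 22 tested members higher, where 22.4% of genes were called higher, and 4 lower (COL6A2, COL14A1, COL17A1 and COL25A1), where 30.8% were, 53.3% in either direction. The higher calls include COL9A1 and COL9A3, which passed the filter only through late growth. The members' median log2 fold change was 0.66, beside -0.11 over all genes tested. Near rest against late growth called 3 higher (COL13A1, COL14A1 and COL17A1) and 12 lower, with a median of -0.68 beside -0.16 (background 31.1%, 8.77% higher and 22.3% lower). These lower calls and this median also include COL9A1 and COL9A3, with the same limit. Near rest against early growth called 11 higher and 6 lower (background 55.9%, 18.7% higher and 37.3% lower), with medians of 0.46 over the members and -0.23 over all genes.

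Collagen transcripts were low in the resting apical papilla against each pulp stage. Against near resting pulp 17 of 22 members were lower and 2 higher (COL20A1 and COL25A1), where 21.6% of genes were called lower and 40.9% higher, 62.5% in all. Against late growth 18 were lower. These include COL9A1 and COL9A3, which passed the filter only through late growth and also enter the median below. The 1 higher member was COL20A1, with a background of 25.8% lower and 32.5% higher, 58.3% in all. That single gene became 2 without either near resting library or in the fit of these 2 groups alone. Against early growth 15 were lower and 4 higher (COL8A1, COL8A2, COL12A1 and COL20A1), with a background of 33.6% lower and 32.1% higher, 65.7% in all. The median log2 fold changes of the members were -1.14, -2.00 and -1.35, beside 0.25, 0.09 and 0.00 over all genes tested. These 3 comparisons share the papilla libraries.

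Set beside the growing papilla of experiment 1, in a table normalized separately, the resting apical papilla had lower means for 15 of the 21 members in both tables. The same share over all genes was not computed, so this count is not read as a result about the members. Mean TPM in the growing whole papilla and in the resting apical papilla was 2505 and 908 for COL1A1, 3422 and 1136 for COL3A1, 1015 and 113 for COL4A1, and 46.0 and 0.00756 for COL28A1. The means were higher in the resting apical papilla for 6 members. They were 2.26 and 18.1 for COL13A1, 14.8 and 48.8 for COL17A1, 76.1 and 232 for COL26A1, 5.13 and 7.80 for COL25A1, 409 and 468 for COL5A2 and 181 and 195 for COL8A2. The smooth muscle markers summed to 26520.3 to 28706 TPM in the growing papilla and 134 to 140.2 TPM in the resting apical papilla. Tissue extent, marker levels, stage and table differ together here and cannot be told apart, and no test was made.

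Genes that make and cross-link collagen were more often called higher than lower in late against early growth. Of a list of 35 genes for prolyl and lysyl hydroxylation, folding, export, propeptide cleavage and cross-linking, 31 were in the table of experiment 2 and 30 were tested. Late against early growth called 15 higher and 4 lower, near rest against late growth 1 higher and 22 lower, and the resting apical papilla against near rest 8 higher and 16 lower. Over all genes the shares called higher and lower were 22.4% and 30.8%, 8.77% and 22.3%, and 40.9% and 21.6% in these comparisons. The list's median log2 fold changes were 0.40, -0.76 and -0.46, beside -0.11, -0.16 and 0.25 over all genes tested. SERPINH1, the collagen-specific chaperone HSP47, was at 1907 and 1638 TPM in early growth, 3174 and 3217 TPM in late growth, 1732 and 1825 TPM near rest and 993, 869 and 940.4 TPM in the resting apical papilla. It rose into late growth (0.85 ± 0.10, adjusted p = 2.1e-04) and fell towards rest (-0.85 ± 0.10, adjusted p = 6.1e-04).

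Among enzymes, PLOD2, the lysyl hydroxylase of the telopeptides, was at 30.8 ± 3.59 TPM in early growth (mean ± SD, n = 2), 143 ± 7.79 TPM in late growth, 103 ± 12.6 TPM near rest and 31.3 ± 3.89 TPM in the resting apical papilla (n = 3), with a rise of 2.18 ± 0.14, adjusted p = 1.5e-05 into late growth. LOXL3, a lysyl oxidase of cross-linking, was at 39.5 ± 6.29 TPM, 219 ± 5.20 TPM, 43.2 ± 0.793 TPM and 27.8 ± 1.16 TPM in the same order (2.45 ± 0.11, adjusted p = 2.6e-06 into late growth), and P3H1, a prolyl 3-hydroxylase, at 189.8 ± 11.5 TPM, 306 ± 9.23 TPM, 164 ± 15.4 TPM and 85.3 ± 2.89 TPM (0.69 ± 0.09). FKBP14, a folding isomerase of the endoplasmic reticulum, fell from 108 ± 5.21 TPM in late growth to 51.8 ± 4.39 TPM near rest (-1.05 ± 0.10, adjusted p = 2.8e-04), and TRAM2, which takes part in type I collagen synthesis, fell into late growth (-0.70 ± 0.08, adjusted p = 2.9e-04). P4HA1, a catalytic subunit of prolyl 4-hydroxylase, did not differ between early and late growth by the test (-0.13 ± 0.09, adjusted p = 0.23).

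In the early growth follicle the list was called in both directions. Of 29 tested genes, 10 were higher and 14 lower in the papilla than in peripheral pulp, and 9 higher and 15 lower in the sheath than in central pulp. Over all genes 21.7% were called higher and 35.6% lower in the first comparison, and 22.9% and 33.6% in the second. The list's medians were -0.15 and -0.26 on the log2 scale, beside -0.17 and -0.11 over all genes. PLOD1, a lysyl hydroxylase of the helix, was at 171 ± 3.33 TPM in the papilla, 148 ± 11.4 TPM in sheath, 547 ± 30.3 TPM in the peripheral pulp and 502 ± 54.0 TPM in the central pulp (n = 3 each), whereas PLOD2 was at 87.8 ± 8.50 TPM, 90.2 ± 7.78 TPM, 32.7 ± 3.15 TPM and 27.4 ± 2.66 TPM. Papilla and sheath were lower than pulp for PLOD1 and higher for PLOD2, with papilla against peripheral pulp at -1.67 ± 0.09, adjusted p = 2.3e-08 for PLOD1 and 1.40 ± 0.11, adjusted p = 5.5e-07 for PLOD2. ADAMTS3, a procollagen peptidase, FKBP14 and TRAM2 were higher in pulp (1.59 ± 0.10, 1.43 ± 0.10 and 1.04 ± 0.09 for central pulp against papilla, SE). SERPINH1 was lowest in the sheath (1432 ± 21.8 TPM) and highest in central pulp (2654 ± 265 TPM; -0.88 ± 0.08, adjusted p = 1.6e-06), and P4HA1 did not pass the F test (adjusted p = 0.32).

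Of 13 collagen receptor genes, 10 were tested in each experiment. Papilla against peripheral pulp called 4 higher and 3 lower, and late against early growth called 6 higher and 1 lower. In the resting apical papilla 6 were lower and 1 higher than in late growth pulp. Over all genes 57.3%, 53.3% and 58.3% were called in these comparisons in either direction. The shares called higher and lower were 21.7% and 35.6%, 22.4% and 30.8%, and 32.5% and 25.8%. The list's medians were 0.05, 0.36 and -0.70 on the log2 scale, beside -0.17, -0.11 and 0.09 over all genes. MRC2, an endocytic receptor that takes up collagen fragments, was at 178 ± 28.6 TPM in the papilla, 196 ± 16.7 TPM in sheath, 438 ± 69.9 TPM in the peripheral pulp and 391 ± 61.7 TPM in the central pulp. Over the stages it was at 528 ± 13.6 TPM, 708 ± 1.71 TPM, 292 ± 58.2 TPM and, in the resting apical papilla, 127 ± 2.40 TPM, with a log2 fold change of -1.29 ± 0.12, adjusted p = 2.7e-04 from late growth to near rest. ITGA11, the integrin alpha chain for fibrillar collagen, was at 111 ± 9.05 TPM in early growth, 138 ± 2.2 TPM in late growth, 92.5 ± 3.06 TPM near rest and 30.7 ± 0.687 TPM in the resting apical papilla. ANTXR2, a cell surface receptor that binds type IV and type VI collagen, was highest in the resting apical papilla. Its level there was 224 ± 7.62 TPM, against 55.4 ± 0.542 TPM in early growth, 176 ± 5.70 TPM in late growth and 134 ± 26.1 TPM near rest (2.00 ± 0.11, adjusted p = 3.0e-06 for the papilla against early growth). In experiment 1 ANTXR2 was at 158 ± 13.6 TPM in the papilla, 175 ± 10.5 TPM in sheath, 66.1 ± 3.15 TPM in peripheral and 68.7 ± 7.49 TPM in the central pulp. ITGB1, the shared integrin beta chain, was at 1289 ± 50.0 TPM in the growing papilla and 790.0 ± 48.0 TPM in peripheral pulp (0.71 ± 0.08, adjusted p = 1.4e-05), and fell from 789.8 ± 19.8 TPM in late growth to 514 ± 22.7 TPM near rest (-0.62 ± 0.09, adjusted p = 0.0015). ANTXR1 was at 93.5 ± 2.37 TPM in sheath and 47.1 ± 4.28 TPM in the central pulp (0.98 ± 0.16, adjusted p = 3.2e-04).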

How the data were processed

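The authors deposited TPM values per gene and library in 1 table for each experiment. The tables were normalized separately, so no test crosses them. The submitters' processing notes name Cuffdiff 2.2.1.3, TopHat2 2.1.1 and Cufflinks 2.2.1.2 without saying which step each did. The build, the annotation and the strand setting of the counting were not given in the sources used here. In RefSeq, 7 of the 24 members overlap another protein-coding gene: COL4A1, COL4A2, COL6A2, COL8A1, COL9A1, COL9A3 and COL12A1. Reads in these overlaps could not be told apart without strand, and their part in the levels was not tested.

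Each test was a limma (3.58.1, R 4.3.3) contrast of log2(TPM + 1), two-sided, from a fit of all libraries of an experiment with trended and robust variance. It left 8 and 5 residual degrees of freedom. A check on simulated data gave each gene the same spread in all groups. That check cannot show how the test behaves where the spread differs between groups or replicates are technical. A gene was tested if 3 libraries (experiment 1) or 2 (experiment 2) reached 1 TPM, and was called where the Benjamini-Hochberg p over all tested genes was under 0.05. The log2(TPM + 1) scale understates changes of low genes; a value written "-fold" is a ratio of mean TPM.

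The members and lists were chosen with earlier results of these data known. The naming rule asked for library values of up to 4 members per class and experiment by mean and 2 by F test p; nearly all are given. From the other lists it took up to 4 genes by F test p with at least 10 TPM, and SERPINH1, P4HA1, PLOD2 and LOX, which was not analysed here. SOX9, ACAN and MATN1 lie outside it and were named after their values were seen. KCNJ8, ABCC9, TP63, KRT14, KRT15, SFN and CDH1 also lie outside it. Marker lists that the report does not mention are not reported here. The log2 difference between replicates had an SD of 0.32 to 0.64, and none were near-duplicates.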

Additional observations from a re-analysis of the deposited data

How the results depend on the processing

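The number of collagen genes called stayed within 1.5 times in all 257 recomputed values (both scalings, a 0.1 pseudocount, a 5 TPM filter or none, plain variance, the replicate block, fits of 2 groups, and each library left out). Counts in 1 direction moved by more in 7 of 444 values, given beside those counts. Fold changes were recomputed only for members and comparisons called in the main fit, so gained calls are not counted. Of 3552 such values, 3455 kept direction and side of the threshold, 96 lost the call and 1 reversed: COL1A2 in papilla against central pulp after quantile normalization, at 0.19. They include fits without a library of a group outside the comparison, which change the contrast little. The causes were not tested. Leaving out 1 library moved the counts called in experiment 1 to 7 to 10 for papilla against sheath, 16 to 18 and 18 to 20 for papilla against peripheral and central pulp, 16 to 19 and 16 to 18 for the sheath, and 8 to 11 between pulp parts. In experiment 2 they were 14 to 20 for late against early growth, 12 to 17 and 13 to 19 for near rest against late and early growth, and 17 to 20, 18 to 20 and 17 to 20 for the resting apical papilla against near rest, late and early growth. Where a group kept 1 library, that library was assumed to vary like the others.

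Same-numbered libraries shared little of their deviation from the group mean, with correlations of -0.085 to 0.143 in experiment 1 and -0.040 to 0.113 in experiment 2. This cannot exclude shared birds or batches. In groups of 2 libraries the deviations mirror each other, so the values of experiment 2 are not all separate. With the replicate block, papilla against sheath called 10 members, late against early growth 16, near rest against late growth 13 and resting apical papilla against near rest 17.

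Median-of-ratios scaling moved the median of all genes by 0.14 (papilla against peripheral pulp), 0.20 (sheath against peripheral pulp), 0.16 and 0.25 (near rest against late and early growth) and -0.25 (resting apical papilla against near rest) on the log2 scale. The share of calls that were higher went from 37.8% to 49.0%, 34.1% to 49.4%, 28.2% to 50.3%, 33.4% to 51.5% and 65.4% to 49.4% in these comparisons, and from 62.2% to 43.0% between pulp parts. Summed TPM of the members moved in 22 cases under this scaling. In the sheath it became 24429.8 TPM, with 1418 for basement membrane, 5363 for beaded filament and 16288 for fibrillar chains, and transmembrane chains became 172 in peripheral pulp. In early growth it became 21464, with 444, 5180.0, 15139.7, 129 and 244 for basement membrane, beaded filament, fibrillar, short-chain and transmembrane chains. Fibril-associated chains became 751 in late growth. Near rest the sum became 32789.6, with 443, 775, 25164 and 865 for basement membrane, fibril-associated, fibrillar and short-chain chains, and in the resting apical papilla 7635, with 189.6, 155, 5154 and 236 in the same order. Depth is unknown, so counting error could not be given.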
